A study of Mus musculus with 6 samples.

Results

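Of the 6 samples of the series, 2 were MARIO assays of mouse embryonic stem (ES) cells that differed by label in how ribosomal RNA was removed, and these were compared here. Both used undifferentiated E14 cells (strain 129/Ola) grown without feeder cells, UV crosslinking at 254 nm, and a first digestion with RNase I, which the labels give as about 1000 nt for both. The study's methods give that size for ES-2 but a range reaching longer fragments for ES-1. In ES-1, ribosomal sequence was removed with duplex-specific nuclease (DSN), an enzyme that cuts double-stranded DNA. In ES-2 it was removed with the GeneRead kit, which captures hybrids of ribosomal RNA and DNA probes with an antibody. MARIO joins RNAs held by the same protein through an RNA linker, and each line of the files gives the fragment before the linker (RNA1) and the fragment after it (RNA2), with the class and name of the RNA at each place in the mouse genome (mm9). ES-1 held 3230403 lines at 2310134 distinct pairs of coordinates, and ES-2 held 1312314 lines at 1241787. Each distinct pair was counted once, and its 2 fragments are called its RNA1 end and its RNA2 end.

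Each condition had a single library, so the spread between replicates could not be measured and no test was made. All intervals given are exact (Clopper-Pearson) 95% intervals and cover counting error only. By the study's methods the assays also differed beyond the depletion itself. The first digestion left fragments up to a longer size in ES-1. DSN acted on cDNA that had been amplified through more cycles and had not been size-selected on a gel, and GeneRead acted on RNA before the second fragmentation. These steps and the depletion method cannot be told apart. Levels of single RNAs are given in ppm, the number of ends per 1000000 ends of that side of the library. A 2-fold difference in level between the libraries was used as a rule of size for single RNA names.

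Ribosomal RNA makes up most of the RNA of a cell, and an assay of RNA contacts reads mainly ribosomes unless it is removed. Small nucleolar RNAs (snoRNAs) guide chemical changes on it: H/ACA snoRNAs guide pseudouridylation and C/D snoRNAs guide 2′-O-methylation. The related Cajal body RNAs do the same for the small nuclear RNAs (snRNAs) of the spliceosome. Transfer RNAs (tRNAs) carry amino acids and end in an added CCA that is not written in the genome.

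The fragments below were the most frequent ones of the RNAs on which the comparison turned, read 5′ to 3′ along the RNA. The first 3 sets are H/ACA snoRNAs, with an ACA near the 3′ end in capitals where the fragment holds it. Snora73a, an H/ACA snoRNA that takes part in ribosomal RNA processing, was read on the minus strand of chromosome 4. Its commonest RNA1 fragment in ES-2 (chr4:131908689-131908748) held the ACA box near its 3′ end, while that of ES-1 (chr4:131908809-131908894) lay upstream of it along the RNA. These were only 347 of 6443 RNA1 ends in ES-2 and 1193 of 29766 in ES-1. In each library a single lowest genome coordinate, where a minus-strand fragment stops, held more RNA1 ends (31.8% in ES-1 and 40.5% in ES-2).
Snora73a, ES-1: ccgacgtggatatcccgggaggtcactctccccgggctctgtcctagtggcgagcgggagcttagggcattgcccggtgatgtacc
Snora73a, ES-2: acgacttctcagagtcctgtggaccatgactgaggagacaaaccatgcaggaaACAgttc
Snora81, the most abundant snoRNA name, lay on the plus strand at chr16:23110912-23111007 in ES-1 and at chr16:23110967-23111008 in ES-2, so that both fragments stopped at nearly the same place and the ES-2 fragment was shorter.
Snora81, ES-1: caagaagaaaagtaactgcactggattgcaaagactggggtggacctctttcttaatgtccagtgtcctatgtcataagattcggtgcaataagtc
Snora81, ES-2: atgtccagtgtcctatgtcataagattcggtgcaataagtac
SNORA76 (plus strand, chr11:106362670-106362691 in ES-1 and chr11:106362658-106362692 in ES-2) was one of the few snoRNAs with more ends in ES-2.
SNORA76, ES-1: cttttaaccgctagctACAggc
SNORA76, ES-2: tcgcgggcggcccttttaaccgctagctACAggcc

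Snord104 is a C/D snoRNA whose 3′ end lies 180 nt upstream of SNORA76 on the same strand. Its commonest ES-2 fragments held the C box letters ATGATGA (RNA2, chr11:106362305-106362336) and the D box letters CTGA (RNA1, chr11:106362337-106362380), shown in capitals. They abut each other in the snoRNA.
Snord104 RNA2, ES-2: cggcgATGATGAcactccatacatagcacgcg
Snord104 RNA1, ES-2: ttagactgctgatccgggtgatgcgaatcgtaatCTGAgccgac
An intron fragment of Rpl3, the gene of a ribosomal protein, carried both sets of letters (minus strand, chr15:79913288-79913348) and was the commonest Rpl3 fragment in ES-1.
Rpl3 intron, ES-1: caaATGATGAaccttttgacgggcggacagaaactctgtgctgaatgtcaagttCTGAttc
The commonest fragments of the glutamate tRNA differed in length and in their last letters, with the CCA tail in capitals where it was read. They were only 36 of 2347 RNA1 ends in ES-1 and 83 of 2879 in ES-2. The median RNA1 length of this tRNA was 38 nt in both libraries. The glutamate tRNA was read at chr9:104310994-104311058 in ES-1 and at chr9:104310993-104311034 in ES-2, both on the minus strand.
tRNA-Glu-GAG, ES-1: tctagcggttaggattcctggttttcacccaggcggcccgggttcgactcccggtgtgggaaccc
tRNA-Glu-GAG, ES-2: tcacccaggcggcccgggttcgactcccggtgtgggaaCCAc
The last letter of the RNA1 fragment was C in 73.8% of RNA1 ends of ES-1 and 88.1% of those of ES-2. At the 3′ end of RNA2 it was C in 16.95% and 30.2%. These shares include fragments that filled a whole read, whose last letter need not be the one before the linker. Such RNA1 fragments were more frequent in ES-1. Since the linker itself begins with C by the study's methods, a final c may belong to the linker.

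Other fragments show ribosomal sequence and what was read under the names of protein-coding genes. The 5S ribosomal name n-R5s193 (plus strand, chr4:149191842-149191893) was lower in ES-2. In the large-subunit repeats, one fragment was the commonest of a genome window with fewer RNA1 ends in ES-2 (minus strand, chr9:118584070-118584132). Another was the commonest of a window with more RNA1 ends in ES-2 (plus strand, chr12:100883270-100883312). The words lower and higher in their labels below refer to RNA1 ends only.
n-R5s193, ES-1: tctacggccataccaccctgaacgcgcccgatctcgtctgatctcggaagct
large-subunit repeat, lower in ES-2: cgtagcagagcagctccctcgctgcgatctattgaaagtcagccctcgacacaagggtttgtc
large-subunit repeat, higher in ES-2: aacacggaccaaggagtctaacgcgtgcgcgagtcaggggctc
Dnahc7b encodes an axonemal dynein chain, Vsig8 an immunoglobulin-domain protein and Ube2e3 a ubiquitin-conjugating enzyme. Their commonest fragments lay at chr1:46132921-46132973 (minus strand, in an intron), chr1:174492231-174492247 and chr2:78709673-78709688 (both plus strand).
Dnahc7b, ES-1: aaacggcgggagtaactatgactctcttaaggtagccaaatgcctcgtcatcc
Vsig8, ES-2: acggggtcggcggcgac
Ube2e3, ES-2: gcggggcggcgggtcc
A repeating unit of 24 nt was found inside many fragments and matched the study's linker from a shifted start.
linker unit: tgcaatgcgaggactagtagccca

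The ribosomal share barely differed between the assays, while snoRNA and snRNA ends took a smaller share in ES-2 and tRNA and mRNA ends a larger one. Ribosomal RNA1 ends were 40.7% of ES-1 (95% interval 40.6 to 40.7) and 38.2% of ES-2 (38.1 to 38.3), a log2 ratio of ES-2 over ES-1 of -0.09. Ribosomal RNA2 ends were 73.3% and 70.0%, a log2 ratio of -0.07. Neither side came near a 2-fold ribosomal difference, and the share of pairs with a ribosomal fragment on at least 1 side was 82.4% for ES-1 and 81.3% for ES-2.

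The other classes differed more. snoRNA ends were 32.3% of RNA1 in ES-1 (32.2 to 32.3) and 14.1% in ES-2 (14.1 to 14.2), a log2 ratio of -1.19, and 10.1% and 6.13% of RNA2, a log2 ratio of -0.72. snRNA ends were 1.81% and 0.641% of RNA1 (log2 ratio -1.50) and 0.734% and 0.256% of RNA2 (log2 ratio -1.52). tRNA went the other way, with 1.09% and 2.89% of RNA1 ends (log2 ratio 1.41) and 0.111% and 0.265% of RNA2 ends (log2 ratio 1.25). Ends in protein-coding genes, called mRNA here, were 11.1% and 21.3% of RNA1 (log2 ratio 0.94) and 7.96% and 12.2% of RNA2 (log2 ratio 0.62). Each class thus kept its direction on both sides of the linker, and each side read the classes in different proportions.

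**Figure D1:**
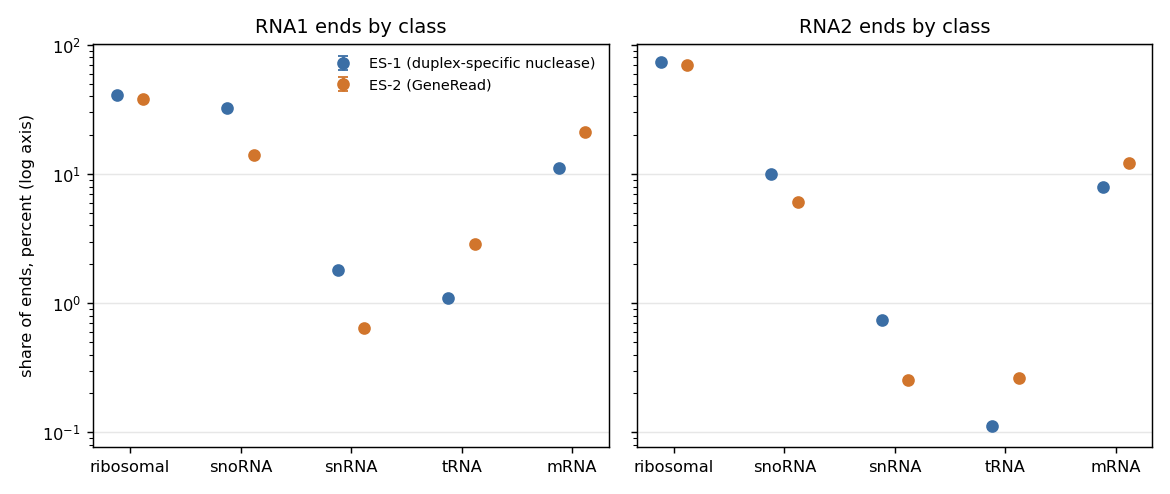
Share of RNA1 ends (left) and RNA2 ends (right) in each RNA class, in percent on a log axis, for ES-1 (blue) and ES-2 (orange), 1 library each. Bars are exact 95% counting intervals and are narrower than most points. snoRNA and snRNA points are lower in ES-2 and tRNA and mRNA points higher, while ribosomal points nearly coincide (40.7% and 38.2% for RNA1).

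Both libraries were read on the same 2 flow cells, and the directions held within each. The RNA1 log2 ratio was -1.27 for snoRNA, 1.62 for tRNA and 0.93 for mRNA on one flow cell, and -1.27, 1.35 and 0.97 on the other. Of the distinct pairs, 3975 had the same coordinates in both libraries, which was 0.172% of those of ES-1 and 0.320% of those of ES-2.

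Fragments were shorter in ES-2 in all 5 classes and on both sides. The median RNA1 end was 44 nt in ES-1 and 28 nt in ES-2, and the median RNA2 end 53 nt and 33 nt. Among RNA1 ends, the medians of ES-1 and ES-2 were 42 and 37 nt for ribosomal RNA, 57 and 44 nt for snoRNA, 60 and 41 nt for snRNA, 37 and 26 nt for tRNA and 24 and 20 nt for mRNA. Among RNA2 ends they were 52 and 37 nt for ribosomal RNA, 67 and 43 nt for snoRNA, 63 and 43 nt for snRNA, 33 and 29 nt for tRNA and 47 and 23 nt for mRNA. The size of the gap depended on which fragments were counted. Among pairs of which both fragments matched the stated place, the RNA1 medians of mRNA were 37 and 18 nt, a gap of 19 nt in place of 4, and with both fragments of at least 20 nt the RNA1 median of tRNA was 39 nt in both libraries.

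**Figure D2:**
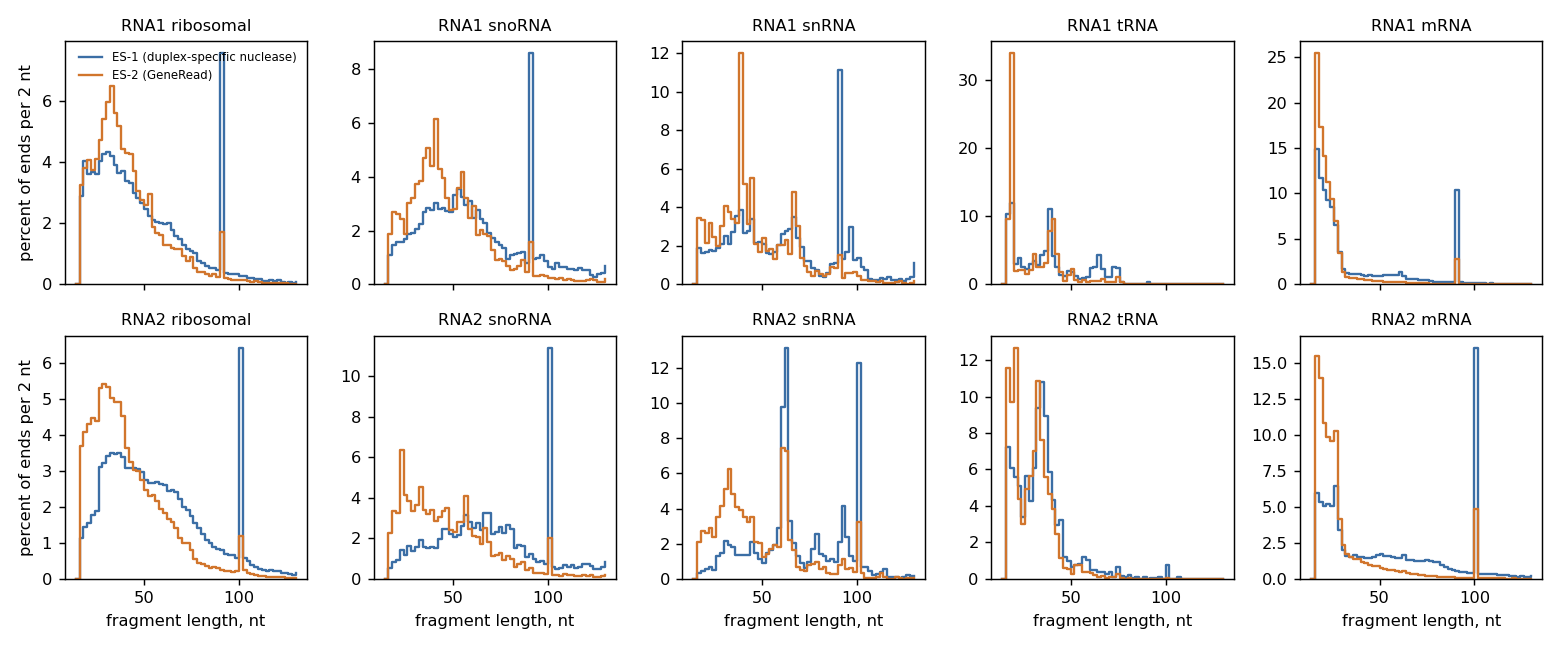
Distribution of fragment length by class for RNA1 (top) and RNA2 (bottom), as percent of the ends of that class per 2 nt, in ES-1 (blue) and ES-2 (orange). The median is lower in ES-2 in each panel (44 nt against 57 nt for RNA1 of snoRNA). The spikes at 90 nt (RNA1) and 100 nt (RNA2) are fragments as long as 1 read, and 43.5% of tRNA and 42.7% of mRNA RNA1 ends of ES-2 are under 20 nt.

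Fragments that filled a whole read, whose inner end was therefore not seen, were 8.60% of RNA1 ends of ES-1 and 2.08% of those of ES-2, at 90 nt, and 8.64% and 2.13% of RNA2 ends, at 100 nt. At the short end, fragments under 20 nt made up 10.6% and 23.7% of RNA1 ends. They were 43.5% of tRNA and 42.7% of mRNA RNA1 ends of ES-2, but 4.55% of its snoRNA ends.

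Length moved with the class shares. Among fragments of 25 to 40 nt, a range that both libraries held, the RNA1 log2 ratios were -0.76 for snoRNA, -0.998 for snRNA, 1.001 for tRNA and 0.51 for mRNA. The RNA2 ratios in that range were -0.14 for snoRNA, -0.64 for snRNA, 0.50 for tRNA and 0.39 for mRNA. All 8 kept their direction and all were nearer to 0 than over all lengths, and the RNA2 snoRNA shares came to 5.19% and 4.71%.

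Within ribosomal RNA the flat total hid differences between its parts. The large-subunit repeat, named LSU-rRNA_Hsa in the files and holding 28S-like sequence, was 25.6% of RNA1 ends in ES-1 against 27.4% in ES-2, and 48.8% and 51.0% of RNA2 ends. The small-subunit repeat SSU-rRNA_Hsa, with 18S-like sequence, was 11.9% and 9.5% of RNA1 ends (log2 ratio -0.32) and 24.04% and 18.3% of RNA2 ends (log2 ratio -0.39). Neither repeat passed a 2-fold difference.

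The small ribosomal RNAs differed more, but on the RNA1 side. Names of 5S genes, with AC141881, whose fragments shared 16-letter words with 5S names in 99.97% of cases in ES-1 and 99.95% in ES-2, held 2.95% of RNA1 ends in ES-1 and 1.08% in ES-2 (log2 ratio -1.45), against 0.226% and 0.208% of RNA2 ends (log2 ratio -0.12). The 2 names of 5.8S RNA held 0.182% and 0.0689% of RNA1 ends (log2 ratio -1.40) and 0.101% and 0.136% of RNA2 ends (log2 ratio 0.43). The single 5S name n-R5s193 had 1435 ppm in ES-1 and 120.0 in ES-2 as RNA1 (log2 ratio -3.58), and 179.6 and 45.1 as RNA2 (log2 ratio -1.98). Its neighbour in name, n-R5s194, had 143.3 and 39.5 as RNA1 (log2 ratio -1.85) and 93.5 and 31.4 as RNA2 (log2 ratio -1.56). These 5S names share nearly all their letters, so the split of reads between them is uncertain.

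The name mmu-mir-2134-4, typed ribosomal in the files, was, like LSU-rRNA_Hsa, at a higher level in ES-2 on both sides. It had 513.4 and 1123 ppm as RNA1 (log2 ratio 1.13) and 1500 and 2475 as RNA2 (log2 ratio 0.72), and at least 99.4% of its fragments held sequence also read under ribosomal repeat names.

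In the large-subunit repeat, reads were placed at many windows of the genome. Outside the mitochondrial chromosome these are places of alignment and not separate genes. Of 78 windows of 1 kb with at least 500 ppm of RNA1 ends on average, 11 (14.1%) were at least 2-fold higher in ES-2 and 15 (19.2%) at least 2-fold lower. On the RNA2 side 10 of 84 (11.9%) were higher and 25 (29.8%) lower. The lower ones include chrM:2001-2314 (log2 ratio -1.89) and chrM:1861-2140 (log2 ratio -2.89), which are mitochondrial. The window at chr12:100883265-100883890, whose fragment is printed above, had 5039 ppm of RNA1 ends in ES-1 and 18014 in ES-2 (log2 ratio 1.84), but 6886 and 6210 as RNA2 (log2 ratio -0.15). The window at chr9:118584054-118584287 had 4718 and 801.3 ppm of RNA1 ends (log2 ratio -2.56). Its RNA2 ends, at chr9:118584068-118584289, went the other way, with 839.8 and 1303 ppm (log2 ratio 0.63). In RNA2 the windows ran from 13350 and 1780 ppm at chr17:71313001-71313236 (log2 ratio -2.91) to 1561 and 6524 at chr9:4260349-4260519 (log2 ratio 2.06).

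The 18S-like sequence at chr17:39983297-39985155, a stretch of 1859 nt on the plus strand, showed the same unevenness along a single molecule. RNA2 fragments that began in its first 100 nt had 11892 ppm in ES-1 and 1417 in ES-2 (log2 ratio -3.07). Between 1400 and 1500 nt they had 13155 and 21174 (log2 ratio 0.69), and between 800 and 900 nt 12261 and 3683 (log2 ratio -1.73). RNA1 fragments that stopped between 1300 and 1400 nt had 5599 and 1243 ppm (log2 ratio -2.17), while those that stopped between 1500 and 1600 nt had 4142 and 7471 (log2 ratio 0.85).

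Mitochondrial ribosomal RNA, which the files mostly left without a class, was lower in ES-2 on both sides. Ends at mt-Rnr2, the mitochondrial large-subunit gene, were 1.32% of RNA1 in ES-1 and 0.200% in ES-2 (log2 ratio -2.72), and 1.76% and 0.378% of RNA2 (log2 ratio -2.22). The small-subunit gene mt-Rnr1 had 0.241% and 0.146% of RNA1 ends (log2 ratio -0.72) and 0.321% and 0.108% of RNA2 ends (log2 ratio -1.57). Mitochondrial mRNAs were also lower in ES-2 (log2 ratios -1.05 and -0.92), whereas mitochondrial tRNAs had ratios of -0.17 and 0.13.

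Over single RNA names with a mean of at least 10 ppm, 1980 of 4374 RNA1 names (45.3%) were at least 2-fold higher in ES-2 and 469 (10.7%) at least 2-fold lower. On the RNA2 side 737 of 2637 (27.9%) were higher and 236 (8.95%) lower. The balance depended on the counting. With every line counted, 749 of 2844 RNA2 names (26.3%) were higher and 574 (20.2%) lower. As shares of ends that were not ribosomal, many more names passed the minimum, and 1388 of 7845 RNA2 names (17.7%) were higher and 1065 (13.6%) lower. Under the 2-fold alternatives, the RNA1 share ran from 38.1% to 48.6% for higher names and from 9.23% to 23.8% for lower names. Read against the shares over all names given first, the classes separated. Among RNA1 names, 222 of 389 snoRNA names were lower and 7 higher, 8 of 11 snRNA names were lower and 0 higher, and 41 of 56 tRNA names were higher and 0 lower. Ribosomal names, mostly 5S copies, had 58 of 80 lower and 5 higher. Of 3275 mRNA names 1642 were higher, 50.1%, close to the share over all names, and 153 were lower.

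**Figure D3:**
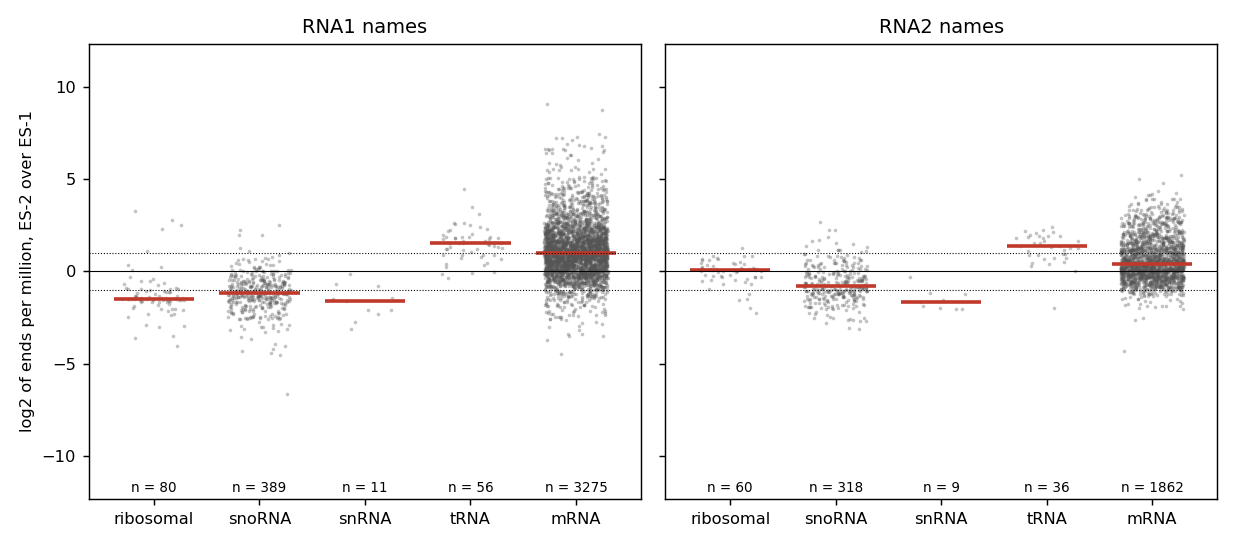
The log2 ratio of ppm, ES-2 over ES-1, for each RNA name with a mean of at least 10 ppm, by class, for RNA1 (left) and RNA2 (right). Each point is 1 name, red lines are class medians and dotted lines mark a 2-fold difference. The RNA1 medians are -1.47 for ribosomal, -1.17 for snoRNA, -1.58 for snRNA, 1.52 for tRNA and 1.007 for mRNA names.

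Among RNA2 names the class medians were -1.63 for snRNA, -0.80 for snoRNA, 0.07 for ribosomal, 0.43 for mRNA and 1.36 for tRNA names, and the ribosomal median among RNA1 names was -1.47. Of RNA2 names, 128 of 318 snoRNA names were lower and 16 higher, 8 of 9 snRNA names were lower, 23 of 36 tRNA names were higher and 1 lower, and 605 of 1862 mRNA names were higher and 72 lower. Ribosomal RNA2 names had 5 of 60 lower (8.33%), near the 8.95% over all names, and 1 higher (1.67%), below the 27.9% over all names.

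Among the snoRNAs, H/ACA names (Snora) were 24.98% of RNA1 ends in ES-1 and 10.6% in ES-2 (log2 ratio -1.23), with 119 of 189 names lower and 7 higher. C/D names (Snord) were 5.29% and 2.67% (log2 ratio -0.99), with 62 of 137 names lower and 0 higher. Cajal body names (Scarna) showed the lowest family ratio, at 0.588% and 0.161% (log2 ratio -1.87), with 19 of 22 names lower. In RNA2 the log2 ratios were -0.84 for H/ACA, -0.24 for C/D and -1.44 for Cajal body names. The C/D snoRNAs thus differed least on both sides and the Cajal body RNAs most.

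Snora81 (ENSMUSG00000087935), an H/ACA snoRNA, had 19828 ppm of RNA1 ends in ES-1 and 5934 in ES-2 (log2 ratio -1.74), but 6333 and 4708 as RNA2 (log2 ratio -0.43). Snora73a had 12885 and 5188 as RNA1 (log2 ratio -1.31) and 2269 and 1290 as RNA2 (log2 ratio -0.81). Where near copies of a snoRNA exist in the genome, the split of reads between them is uncertain. Snora30 had 248.0 and 51.5 ppm as RNA1 (log2 ratio -2.26) and 170.6 and 29.8 as RNA2 (log2 ratio -2.50), and it stood with SCARNA17, a Cajal body RNA at 134.6 and 22.5 as RNA1 (log2 ratio -2.55) and 97.8 and 19.3 as RNA2 (log2 ratio -2.31), at the low end. In ES-1 the median RNA1 fragment was long, at 72 nt for Snora30 and 90 nt for SCARNA17. At 90 nt a fragment filled the whole read and its inner end was not seen, so this median is a lower limit.

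SNORA76 and Snord104 stood at the opposite end. SNORA76 had 148.0 and 578.2 ppm as RNA1 (log2 ratio 1.96) and 117.7 and 739.3 as RNA2 (log2 ratio 2.65). Snord104 had 889.6 and 1337 as RNA1 (log2 ratio 0.59) and 221.6 and 1068 as RNA2 (log2 ratio 2.27). The medians over snoRNA names were -1.17 as RNA1 and -0.80 as RNA2, so this pair of neighbours on chromosome 11 went against the median of their class. Their RNA1 fragments were not shorter in ES-2, with medians of 35 and 43 nt for SNORA76 and 43 and 44 nt for Snord104. The RNA2 medians were 49.5 and 52 nt for SNORA76, but 34 and 32 nt for Snord104, slightly shorter in ES-2.

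The part of a snoRNA that was read also differed. Leaving out fragments as long as 1 read, 62.5% of RNA1 fragments of snoRNAs in ES-1 stopped within 5 nt of the annotated 3′ end (62.4 to 62.6), against 78.9% in ES-2 (78.7 to 79.1). The share was 59.8% and 77.8% for H/ACA, 76.7% and 82.4% for C/D and 38.4% and 62.7% for Cajal body names. RNA2 fragments that began within 5 nt of the 5′ end were 52.1% and 49.6%, and for C/D names 67.7% and 57.7%. Fragments spanning the whole snoRNA were 5.22% of RNA1 in ES-1 and 2.70% in ES-2. RNA1 fragments therefore stopped more often near the annotated 3′ end of the snoRNA in ES-2, and no such gain was seen at the 5′ ends of RNA2. The last letter, which may belong to the linker, was C in 72.2% of snoRNA RNA1 fragments of ES-1 and 90.7% of those of ES-2. Fragments as long as 1 read were kept in this count of last letters. Whether each stop was the end joined to the linker was not tested.

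**Figure D4:**
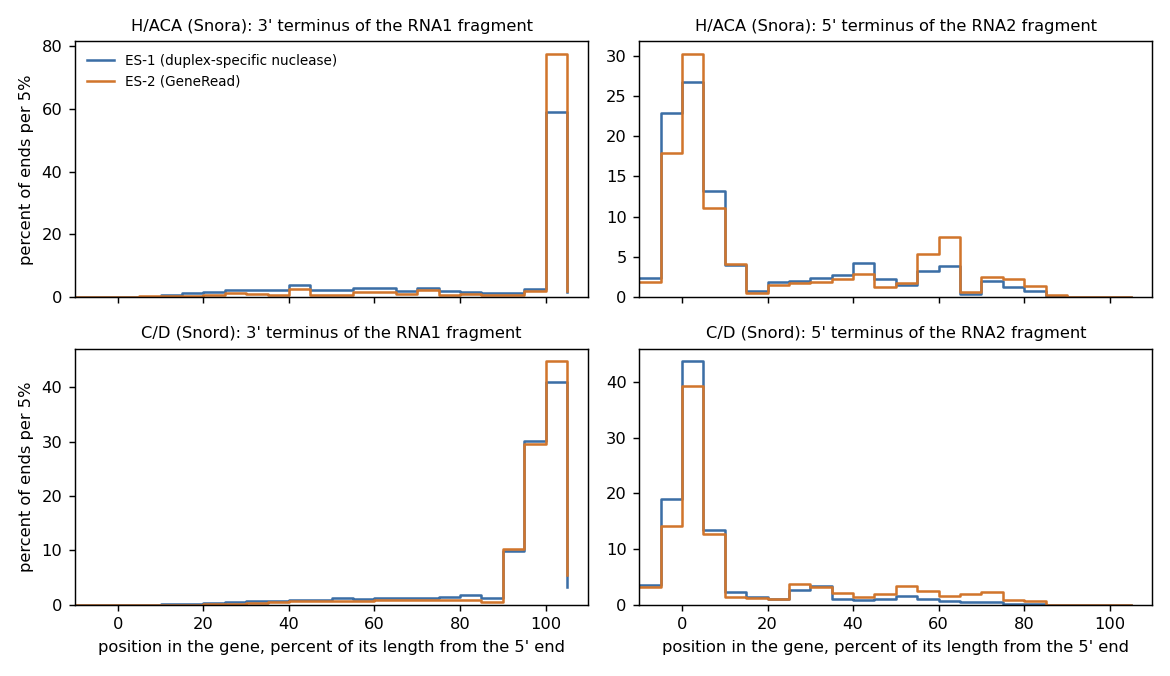
Where the fragment terminus on the side of the linker fell along the snoRNA gene, as percent of ends per 5% of gene length. Panels show the 3′ terminus of RNA1 (left) and the 5′ terminus of RNA2 (right), in H/ACA (top) and C/D (bottom) snoRNAs. Fragments as long as 1 read are left out. Whether each terminus was joined to the linker was not tested. RNA1 piles up at the 3′ end, more so in ES-2 for H/ACA (77.8% within 5 nt, against 59.8% in ES-1), and RNA2 at the 5′ end.

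The snRNAs are the RNA cores of the spliceosome. U1, which recognises the 5′ splice site, had 7518 and 2517 ppm of RNA1 ends in ES-1 and ES-2 (log2 ratio -1.58) and 3538 and 900.3 as RNA2 (log2 ratio -1.97). U2, which pairs with the branch point, had 7034 and 2611 (log2 ratio -1.43) and 978.7 and 437.3 (log2 ratio -1.16). U5, which holds the exon ends together, had 960.1 and 226.3 (log2 ratio -2.08) and 631.6 and 169.9 (log2 ratio -1.89). AC120136, a name typed as snRNA, had 1222 and 248.8 (log2 ratio -2.29) and 232.5 and 55.6 (log2 ratio -2.06). U6, the catalytic snRNA, differed less, at 0.0628% and 0.0360% of RNA1 ends (log2 ratio -0.80) and 0.0693% and 0.0573% of RNA2 ends (log2 ratio -0.27). U12, of the minor spliceosome, was near equal as RNA1 (log2 ratio -0.14) and lower as RNA2 (log2 ratio -1.54), and U4 had ratios of -0.69 and -1.63. The difference was thus common to most snRNAs and differed in size by side.

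Most tRNA names were at least 2-fold higher in ES-2 on each side, by the counts given above. The glutamate name tRNA-Glu-GAG_ had 1016 and 2318 ppm of RNA1 ends (log2 ratio 1.19) and 81.4 and 259.3 as RNA2 (log2 ratio 1.67). The leucine name tRNA-Leu-CTG had 89.6 and 298.8 (log2 ratio 1.74) and 21.6 and 94.2 (log2 ratio 2.11), and tRNA-Leu-CTY had 90.9 and 208.6 (log2 ratio 1.20) and 55.8 and 290.7 (log2 ratio 2.38). The aspartate name tRNA-Asp-GAY, also among the most abundant, did not share the RNA1 direction, with 1633 and 1545 ppm of RNA1 ends (log2 ratio -0.08) but 39.0 and 102.3 as RNA2 (log2 ratio 1.39). Its median RNA1 fragment was 61 nt in ES-1 and 38 nt in ES-2.

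By amino acid, the RNA1 log2 ratio ran from -0.08 for aspartate, -0.02 for selenocysteine, 0.15 for glutamine and 0.44 for glycine to 2.24 for alanine, 2.25 for leucine and 2.36 for threonine. Aspartate, glutamine and glycine had RNA2 ratios of 1.39, 1.20 and 0.55. For serine the RNA1 ratio was 1.95 and the RNA2 ratio 0.01. The amino acids therefore did not keep the same order on both sides.

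Short fragments with a CCA tail were part of the tRNA difference. RNA1 ends of tRNAs under 20 nt were 0.242% of all ends of ES-1 and 1.26% of those of ES-2, and those of 20 nt or more were 0.845% and 1.63%. CCA stood within the last 5 nt of 35.8% of tRNA RNA1 fragments in ES-1 (35.3 to 36.4) and 44.2% in ES-2 (43.7 to 44.8), against 2.54% and 1.91% of snoRNA fragments read the same way. Among the short tRNA fragments the shares were 44.4% and 49.8%. RNA2 fragments of tRNAs, whose 3′ ends lie away from the linker, held it in 8.31% and 6.69%, against 4.61% and 3.86% of snoRNA fragments.

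The larger mRNA share of ES-2 did not come from ends inside exons on the strand of the transcript. Such ends, with neither linker letters nor ribosomal-like sequence, were 2.64% of RNA1 in ES-1 (2.62 to 2.66) and 2.58% in ES-2 (2.55 to 2.61), a log2 ratio of -0.04. In RNA2 they were 3.59% and 3.70%, a log2 ratio of 0.04. Fewer of them matched the genome at the stated place in ES-2, at 91.2% and 80.3% of such RNA1 ends and 96.2% and 81.9% of such RNA2 ends. A fragment counted as ribosomal-like when it shared a 16-letter word with fragments of the ribosomal repeats, and as holding linker when it shared a 10-letter word with the linker unit. Ribosomal-like ends under mRNA names were 3.03% and 7.30% of RNA1 (log2 ratio 1.27) and 1.92% and 3.71% of RNA2 (log2 ratio 0.95). Linker pieces were 1.14% and 3.67% of RNA1 (log2 ratio 1.69) and 0.184% and 0.906% of RNA2 (log2 ratio 2.30). Ends on the other strand of exons (0.382% and 1.04% of RNA1) and in introns or across exon edges (3.93% and 6.72%) were also more frequent in ES-2.

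**Figure D5:**
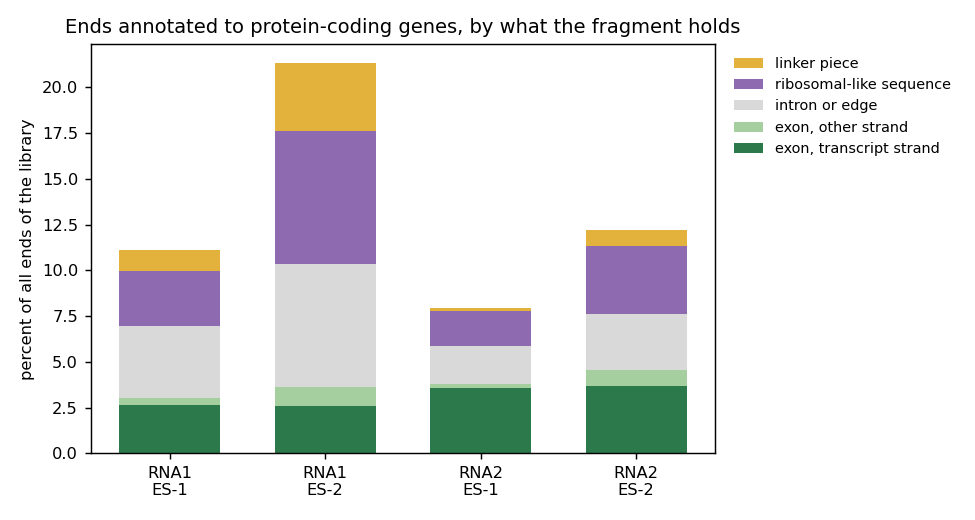
Ends named after protein-coding genes, as percent of all ends of the library, split by what the fragment held, for RNA1 and RNA2 in ES-1 and ES-2. The dark green part, exon ends on the transcript strand, is about equal in the libraries (2.64% and 2.58% of RNA1), while the purple (ribosomal-like) and yellow (linker) parts are larger in ES-2.

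Over all classes, ribosomal-like sequence under names that are not ribosomal was 6.39% of RNA1 ends in ES-1 against 14.2% in ES-2, and 4.37% and 8.22% of RNA2 ends. With these added, the ribosomal share was 47.1% and 52.4% of RNA1 (log2 ratio 0.15) and 77.7% and 78.2% of RNA2 (log2 ratio 0.01). The direction of the small ribosomal difference therefore depended on whether such fragments were counted.

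Single mRNA names showed the same mixture. The names were called higher or lower from the same ends that are described here, so these values are not independent of the calls. Of the 1642 RNA1 names higher in ES-2, 405 had at least 50% of their ES-2 ends at 1 lowest genome coordinate, against 26 of the 153 lower names and 111 of the 1480 names between the fold limits. By the ends of ES-1 these were 185 higher, 40 lower and 131 between names, so that there the lower names had the highest share. Of the RNA2 names, 249 of 605 higher, 4 of 72 lower and 72 of 1185 between names met this by the ends of ES-2, and 124, 4 and 58 by those of ES-1. The share of ends with linker or ribosomal-like letters was lowest in the names between the limits, on both sides and in both libraries, but the higher and lower names had no common order. Among RNA1 ends of ES-2 it was 58.95% in the higher names, 54.9% in the lower and 49.0% in those between, and among RNA1 ends of ES-1 45.4%, 51.9% and 41.3%. Among RNA2 ends it was 51.9%, 71.6% and 24.4% by ES-2 and 48.3%, 76.7% and 17.3% by ES-1. Ends on the transcript strand of an exon were the most frequent in the names between. Their RNA1 shares in higher, lower and between names were 5.78%, 7.56% and 16.2% by ES-2 and 11.2%, 7.81% and 24.1% by ES-1. The RNA2 shares were 14.7%, 20.9% and 49.6% by ES-2 and 18.7%, 16.5% and 57.6% by ES-1, so the higher names were below the lower names by the ends of ES-2 and above them by those of ES-1. Vsig8 had 11.7 and 165.9 ppm of RNA1 ends (log2 ratio 3.804) and 8.22 and 126.4 as RNA2 (log2 ratio 3.91). In ES-1 Vsig8 had only 27 RNA1 and 19 RNA2 ends. Its RNA1 fragments matched the genome at the stated place in 48.1% (ES-1) and 76.7% (ES-2) of cases. Among its RNA2 fragments the shares were 5.26% and 4.46%. In ES-2, 91.3% of its RNA1 ends shared 1 lowest genome coordinate, at a median of 17 nt, and 84.5% were ribosomal-like. Ube2e3 had 37.2 and 298.0 (log2 ratio 2.99) and 16.02 and 244.0 (log2 ratio 3.91), with a median RNA1 fragment of 16 nt in both libraries and 88.4% of its ES-2 RNA1 ends at 1 such coordinate. Its fragments matched the stated place in 97.7% and 95.1% of RNA1 ends, but in only 27.0% and 43.6% of RNA2 ends. By the 16-letter rule 1.35% of its ES-2 RNA1 fragments were ribosomal-like. A fragment of 16 nt holds a single 16-letter word, so it counted only where that whole word was also read in the ribosomal repeats. Whether such fragments were ribosomal by a looser match was not tested.

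The abundant names that were lower in ES-2 were of mixed kinds. Dnahc7b had 3284 and 1436 ppm of RNA1 ends (log2 ratio -1.19) and 5508 and 1511 as RNA2 (log2 ratio -1.87), and 98.5% to 99.9% of its fragments were ribosomal-like over both sides and libraries. Cntnap5b, a gene of a neuronal surface protein, had 1176 and 374.5 (log2 ratio -1.65) and 353.2 and 168.3 (log2 ratio -1.07), with 93.98% to 98.6% of its fragments ribosomal-like. Rpl3 had 2835 and 1086 (log2 ratio -1.38) and 748.4 and 458.2 (log2 ratio -0.71), and 79.8% and 85.1% of its RNA1 ends shared 1 lowest genome coordinate, which for a gene on the minus strand is where the RNA fragment stops. Among its intron fragments of 50 to 75 nt, 80.6% in ES-1 (79.4 to 81.8) and 84.7% in ES-2 (81.8 to 87.2) held ATGATGA within 12 nt of the start and CTGA within 12 nt of the end, read along the RNA and not overlapping. The same letters stood in 12.6% and 15.2% of fragments of C/D names of that length and in 0.446% and 0.268% of those of other mRNA names. The match describes letters only.

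Among exon ends on the transcript strand, about as many RNA1 genes were higher as lower in ES-2, and more RNA2 genes were lower than higher. Of 2378 genes with a mean of at least 100 ppm in RNA1, here counted over such exon ends alone, 370 (15.6%) were at least 2-fold higher in ES-2 and 430 (18.1%) lower. Of 2349 genes in RNA2, 188 (8.0%) were higher and 363 (15.5%) lower. A level of 100 ppm stood for only 6.11 RNA1 ends in ES-1 against 3.201 in ES-2 on this scale. The 2-fold counts therefore include counting error in the genes near the minimum. Ribosomal protein genes (Rpl and Rps) held 1.72% and 1.42% of RNA1 exon ends (log2 ratio -0.28) and 1.67% and 1.48% of RNA2 exon ends (log2 ratio -0.18). Histone genes (Hist) held 2.08% and 1.94% (log2 ratio -0.10) and 1.74% and 1.90% (log2 ratio 0.13). Over all ends under Rpl and Rps names, whatever their strand or place in the gene, the RNA1 shares were 0.359% and 0.162% of the library (log2 ratio -1.15) and the RNA2 shares 0.143% and 0.110% (log2 ratio -0.38). Rpl3 made up 6549 of these 8285 RNA1 ends in ES-1 and 1349 of 2009 in ES-2.

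Markers of the labelled cells were read in both libraries. All 15 ES cell markers had RNA1 exon ends in ES-1 and 14 in ES-2, where Dppa4 had 0, with 434 of 61082 exon ends in ES-1 (0.711%) and 156 of 32014 in ES-2 (0.487%, log2 ratio -0.54). Sox2, a core factor of pluripotency, had 79 and 32 RNA1 ends, Pou5f1 38 and 10, and Nanog 17 and 7. Klf4 (16 and 11), Utf1 (20 and 14) and Dnmt3b (2 and 2) took a larger share of RNA1 exon ends in ES-2. The other ES cell markers took a smaller one, on few ends each. In RNA2 the ES cell markers held 700 of 83017 exon ends in ES-1 (0.843%) and 306 of 45997 in ES-2 (0.665%, log2 ratio -0.34). Of 15 fibroblast markers 9 had RNA1 exon ends in ES-1 against 2 in ES-2, where fewer exon ends were read, and 8 against 6 had RNA2 exon ends. Their shares were 0.442% and 0.262% of RNA1 exon ends (log2 ratio -0.75) and 0.348% and 0.326% of RNA2 exon ends (log2 ratio -0.09). Among the RNA1 ends, Fn1, which encodes fibronectin, made up 251 of the 270 ends in ES-1 and 82 of the 84 in ES-2. In RNA2 it made up 273 of 289 and 135 of 150.

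The pairs combined these shifts. snoRNA joined to ribosomal RNA, in that order, made up 23.2% of the pairs of ES-1 and 9.32% of those of ES-2 (log2 ratio -1.32), and snoRNA joined to snoRNA 4.07% and 1.43% (log2 ratio -1.51). snRNA joined to snRNA was 0.0831% and 0.0128% (log2 ratio -2.69). tRNA followed by ribosomal RNA was 0.833% and 2.104% (log2 ratio 1.34), and mRNA followed by ribosomal RNA 7.66% and 15.1% (log2 ratio 0.98). Ribosomal on both sides was the most frequent combination in each, at 31.6% and 26.9% (log2 ratio -0.23).

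Other measures that moved with the library were recorded beside these, and their part in the results was not tested. Lines repeated at the same coordinates were 28.5% of ES-1 and 5.37% of ES-2, and a distinct RNA1 snoRNA pair stood on 1.54 lines in ES-1 and 1.08 in ES-2. The median GC content of RNA1 ends was 53.4% in ES-1 and 60% in ES-2. Of RNA1 ends, 89.7% and 75.4% matched the genome at the stated place with at most 15% mismatches. The share was 99.5% and 98.95% for snoRNA but 60.7% and 47.6% for mRNA.

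In the library of ES cells with dual chemical crosslinking, also treated with DSN, RNA1 ends were 39.9% ribosomal, 1.38% snoRNA, 1.06% snRNA, 0.380% tRNA and 34.2% mRNA. In the fibroblast library, also depleted with GeneRead after digestion to about 300 nt, they were 13.5% ribosomal, 5.24% snoRNA, 0.166% snRNA, 0.463% tRNA and 37.2% mRNA. These libraries differ from ES-1 and ES-2 in crosslinking, cells or digestion as well, so the values stand side by side only.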

How the data were processed

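The authors deposited 1 line per read pair, with the place, strand, sequence, RNA class and RNA name of both fragments in mouse build mm9. Per the study's methods, pairs with the same places and random barcode had been merged, the linker located and both fragments mapped uniquely, so repeat lines here share places but may differ in barcode. The submitters' processing notes name TopHat2 2.1.1, mm9 and NCBIM37. Values of the deposited columns used here are of other kinds than expression units (positions, letters and names), and all counts were made here by counting lines. Unique mapping limits what can be read of repeated RNAs.

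Lines were collapsed to distinct places and strands of both fragments. Ends were classed by the deposited type, and ratios used a pseudocount of 0.5 ends. Names with a mean of at least 10 ppm (ends per 1000000 ends of that side) were compared by a 2-fold rule of size. PCR copies are not independent molecules, so intervals cover counting error only. Named in each class were the 2 names of highest level and, of names with a mean over both libraries of at least 50 ppm and one direction on both sides, the 2 highest and the 2 lowest ratios. Members and lists were chosen with earlier results of these data known. Ribosomal-like meant a shared 16-letter word and linker a shared 10-letter word. Python 3.11.15, numpy 2.4.6, scipy 1.17.1, pandas 2.3.3 and matplotlib 3.10.9 were used, and the naming rule was tested on simulated data. Alternatives counted every line, each flow cell alone, longer fragments, fragments matching the genome, other denominators and other thresholds. The brain libraries were not used here.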

Additional observations from a re-analysis of the deposited data

How the results depend on the processing

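Log2 ratios of ES-2 over ES-1 are given below for RNA1 and then RNA2, in the order ribosomal, snoRNA, snRNA, tRNA and mRNA where no class is named. With every line counted they were 0.0469, -1.31, -1.37, 1.60 and 0.90, then 0.0127, -0.98, -1.50, 1.403 and 0.47. There 574 of 2844 RNA2 names were lower, and all-class median lengths differed by -20 and -22 nt. On flow cell A alone they were -0.00299, -1.27, -1.43, 1.62 and 0.93, then -0.0204, -0.86, -1.50, 1.33 and 0.53, with lengths -18 and -21 nt. On flow cell B alone they were -0.0667, -1.27, -1.46, 1.35 and 0.97, then -0.0790, -0.78, -1.47, 1.28 and 0.68. With both fragments of at least 20 nt they were 0.10, -1.03, -1.35, 1.14 and 0.85, then -0.0292, -0.62, -1.42, 1.2998 and 0.48, with lengths -14 and -19 nt. With both sequences matching the stated place they were 0.12, -0.93, -1.25, 1.52 and 0.87, then 0.0264, -0.59, -1.39, 1.44 and 0.26, with lengths -14 and -19 nt. There 1144 of 2860 RNA1 and 398 of 1970 RNA2 names were higher. As shares of ends that were not ribosomal, snoRNA, snRNA, tRNA and mRNA had -1.25, -1.55, 1.35 and 0.88, then -0.89, -1.69, 1.08 and 0.45. There 1388 of 7845 RNA2 names were higher and 1065 lower. Among fragments of 25 to 40 nt they were 0.0391, -0.76, -0.998, 1.001 and 0.51, then -0.0826, -0.14, -0.64, 0.50 and 0.39. Without linker pieces and ribosomal-like sequence under other names, an alternative chosen after seeing the data, they were 0.15, -0.96, -1.25, 1.63 and 0.81, then 0.0194, -0.63, -1.43, 1.35 and 0.47. There 1213 of 3185 RNA1 and 365 of 1975 RNA2 names were higher. For mRNA ends that the files place in an exon or UTR the ratios were 0.69 and 0.54, and for clean ends on the transcript strand of an exon, also chosen after seeing the data, -0.0365 and 0.0437. With a mean of at least 50 ppm, 463 of 1086 RNA1 names were higher and 259 lower, and 195 and 110 of 535 in RNA2. At 4-fold the counts were 879 and 134, and 296 and 28.

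The ribosomal ratio thus changed sign under 5 alternatives in RNA1 and 3 in RNA2, and the mRNA ratio in RNA1 under 1. snoRNA, snRNA and tRNA kept their direction under every alternative run. The RNA1 tRNA median length differed by 0 nt once fragments under 20 nt were left out, and no other class median length reached 0 under the alternatives. The causes were not tested. Each group had 1 library, so leaving out a replicate was not possible. No paired analysis was possible because each group held a single library and no result came from a test. Low names such as SCARNA17, with 28 RNA1 ends in ES-2, are limited by counting error.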

Other observations

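Several types of end outside the 5 classes also differed between the libraries. As RNA1, LTR elements, which derive from retroviruses, were 1.27% of ends in ES-1 against 3.06% of those in ES-2 (log2 ratio 1.27), SINE elements 0.735% and 1.89% (log2 ratio 1.36), LINE elements 1.91% and 3.33% (log2 ratio 0.80) and lincRNA 0.495% and 1.04% (log2 ratio 1.07). As RNA2, low-complexity sequence was 0.301% and 1.57% (log2 ratio 2.39). The type misc_RNA went the other way as RNA1, at 0.187% and 0.0468% (log2 ratio -2.00), with a smaller RNA2 ratio of -0.25, and pseudogenes had ratios of -0.01 and -0.10. How much linker and ribosomal-like sequence these types held one by one was not tested; over all ends outside the 5 classes, linker pieces were 12.01% and 22.9% of RNA1 ends.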
